A study of Mus musculus with 16 samples.

Results

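The genes described here make, take up, move and sense cholesterol. The set holds 30 genes listed by name for their roles, and all 30 were among the 18507 genes tested in the series. Of them, 4 belong to the sterol sensor (Srebf2, Scap, Insig1, Insig2), 8 to the mevalonate steps (Acat2, Hmgcs1, Mvk, Pmvk, Mvd, Idi1, Fdps, Ggps1), 3 lead from farnesyl diphosphate through squalene to lanosterol (Fdft1, Sqle, Lss), 8 turn lanosterol into cholesterol (Cyp51, Tm7sf2, Msmo1, Nsdhl, Hsd17b7, Ebp, Sc5d, Dhcr7), and 7 serve uptake, transport and esterification (Mylip, Stard4, Npc1, Npc2, Soat1, Soat2, Scarb1).

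Cholesterol is built from acetyl-CoA, and the liver is a main site of its synthesis and of its removal from blood. SREBP2, the product of Srebf2, is a transcription factor held in the endoplasmic reticulum membrane. When sterols are low, the escort protein SCAP carries it to the Golgi, where it is cut and freed to reach the nucleus and switch on the genes of synthesis and uptake. When sterols are high, an INSIG protein holds SCAP back. Insig1 is itself a target of SREBP, whereas Insig2 also has a liver transcript that insulin is known to lower.

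RNA came from livers of male C57BL/6 mice at 3 months of age, and each of 16 one-colour Agilent arrays held 1 Cy3-labelled sample. Wild-type mice were left untreated or given dexamethasone, a synthetic glucocorticoid, and mice with a liver knockout of the glucocorticoid receptor (GR, encoded by Nr3c1) were handled in the same 2 ways, with 4 arrays in each of the 4 groups. The labels describe the untreated groups as receiving no treatment, while the protocol names a vehicle and titles of the knockout samples carry the word PBS. Neither the dose and duration of dexamethasone nor the promoter that drives the deletion is given in the sources used here. Replicates were taken to be separate mice, although the labels do not state it, so the p-values measure the spread between these samples.

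Signals are given as log2 levels relative to the 75th percentile of the array, and changes as differences of those levels. Calls rest on limma's two-sided test, adjusted by Benjamini-Hochberg for the 18507 genes together, at a threshold of 0.05, and "rose" or "fell" is used of called genes only. Nr3c1 was lower in the knockout by 3.96-fold without dexamethasone and by 3.9-fold with it, at levels from -0.10 to 0.56 on the 8 knockout arrays against 1.93 to 2.52 on the 8 wild-type arrays, with no overlap. Array brightness, read as the signal at the 75th percentile, was 523 to 692 for 14 arrays. Among wild-type untreated arrays number 4 reached 401, and among knockout untreated arrays number 1 reached 309. Dim array 4 was the lowest of the untreated wild-type group for 21 of the 30 members and the highest for 6. Dim array 1 was the lowest of the untreated knockout group for 20 and the highest for 5. Brighter arrays were uneven too, as treated wild-type array 3 was the highest of its group for 18 members and untreated knockout array 4 for 17. Such ranks over all genes are not given here, and the part of brightness in them was not tested. No slide carried more than 1 group, and what a slide adds cannot be told apart from what a group adds. The tissue is bulk liver, in which fewer cells of a type and less RNA per cell cannot be told apart. Of 7 hepatocyte markers 6 were measured, each above background in every group on at least 1 array, and their mean log2 level was 7.71 to 8.16 on untreated and 8.03 to 8.17 on treated wild-type arrays, against 7.30 to 7.63 and 7.41 to 7.62 on knockout arrays. All 30 members were above background on all 16 arrays and none was saturated, so no member entered through 1 group alone. Of 5 B cell markers 3 were lower with dexamethasone in each genotype (median change -1.75 in wild type and -2.11 in the knockout). Their mean level was -3.14 to -2.90 untreated and -4.74 to -4.03 treated in wild type, and -2.82 to -1.59 and -4.27 to -3.37 in the knockout, and 2 of the 5 were above background on no treated wild-type array. Among T and NK cell markers 1 of 4 tested was lower with dexamethasone in each genotype, and among neutrophil markers 1 of 3 in wild type and 0 of 3 in the knockout. The part of these cells in the members' changes was not tested.

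In wild-type liver, dexamethasone lowered Stard4, Lss, Insig1, Sc5d, Scap and Acat2 and raised Insig2 and Mylip. That is 8 of 30 members (26.7%), against 12% of all genes called in this comparison. The 2 rises stand against 5.18% of genes called higher and the 6 falls against 6.81% called lower. The members were chosen with earlier results of these data known, so these shares and those below are a description and no test of the set. Over the 30 members 22 estimates were negative, with a median of -0.31 on the log2 scale against -0.03 over all genes. Left without both dim arrays, an alternative chosen after the data were seen, the comparison called 12 members, 4 higher and 8 lower, while the share of all genes called rose to 18.2%. Of the 12, 7 were shared with the 8: Acat2 was lost, while Mvd (-1.62), Fdft1 (-1.22), Soat2 (-0.75), Srebf2 (0.47) and Scarb1 (0.57) were added.

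In the knockout, dexamethasone raised 1 member, Mylip, or 3.33% against 3.58% of all genes called and 1.18% called higher. The median member change there was 0.14 (all genes -0.00), and -0.02 without both dim arrays. With all arrays, for 15 members the estimate was negative in wild type and positive in the knockout, for 7 it was negative in both, for 4 positive in both, and for 4 positive in wild type and negative in the knockout. Without both dim arrays these counts were 11, 14, 2 and 3, so the most frequent pattern became a negative estimate in both genotypes. The 2 responses differed for Insig1, Insig2 and Stard4 (3 of 30 members, 10%, against 4.61% of all genes, by the interaction term of genotype and dexamethasone). Insig1 and Stard4 had the positive interaction, against 1.93% of all genes, and Insig2 the negative one, against 2.69%. Without both dim arrays 7 members and 8.16% of all genes passed this test, the members being the same 3 with Scap, Fdft1, Lss and Sc5d, and under normexp background correction none of the 30 did.

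**Figure D1:**
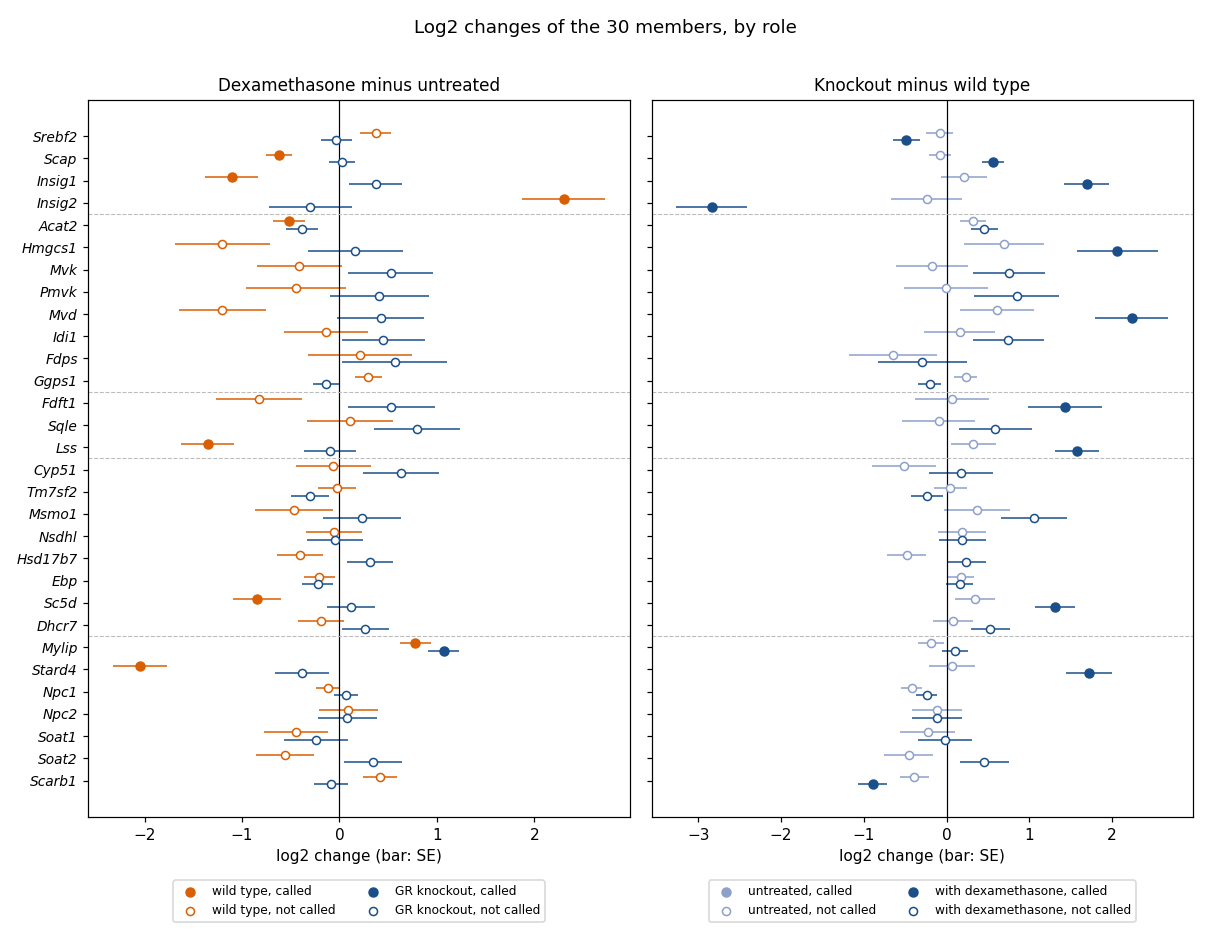
Log2 change of each of the 30 members with its SE, grouped by role from the sterol sensor at the top to transport at the bottom, for dexamethasone against no treatment (left, wild type and knockout) and for knockout against wild type (right, untreated and with dexamethasone). Filled points passed an adjusted p of 0.05. The filled points of the left panel are 8 in wild type and 1, Mylip, in the knockout, and the right panel has filled points only with dexamethasone.

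Knockout liver given dexamethasone had higher levels than treated wild-type liver for 8 members and lower levels for 3. These 11 of 30 (36.7%) stand against 22.3% of all genes called, 14.1% higher and 8.2% lower. Left without both dim arrays, which belong to neither group, the fit called 14 members and 32.3% of all genes. The members added were Acat2 (0.45), Mvk (0.76) and Msmo1 (1.06), each higher in the knockout. In this comparison 4 of the 6 hepatocyte markers were lower in the knockout, with a median change of -0.66, and their part in the members' results was not tested. Without treatment no member was called between the genotypes by the probe that stood for it (limma's adjusted p), against 2.82% of all genes called, and 2 members passed an unadjusted p of 0.05. The members' median there was 0.02, and 2 of 6 hepatocyte markers were lower in the knockout. The comparisons share groups, so they are not independent of each other.

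Transcription start windows from RefSeq (GRCm38.p6, 250 bases before to 50 after each start) were given for 23 of the 30 members. Shown are those of Hmgcs1, the one with a sterol regulatory core, of Insig1 and Insig2, which moved in opposite directions in wild type, of Lss and Sc5d, which fell there, and of Mylip, which rose in both genotypes. Capitals mark CCAAT, the box bound by NF-Y, a factor known to act with SREBP, read on either strand (ATTGG on the other), and TCACNCCAC, a core of the sterol regulatory element that SREBP binds, also searched on both strands. The 2 motifs do not overlap in these windows.
Hmgcs1, chr13:119690101-119690400, plus strand: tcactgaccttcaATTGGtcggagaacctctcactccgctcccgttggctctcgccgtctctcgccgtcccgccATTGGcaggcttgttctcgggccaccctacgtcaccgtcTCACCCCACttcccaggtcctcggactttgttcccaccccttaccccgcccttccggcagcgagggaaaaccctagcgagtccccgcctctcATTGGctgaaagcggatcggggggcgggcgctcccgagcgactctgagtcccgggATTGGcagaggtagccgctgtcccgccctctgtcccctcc
Insig1, chr5:28071162-28071461, plus strand: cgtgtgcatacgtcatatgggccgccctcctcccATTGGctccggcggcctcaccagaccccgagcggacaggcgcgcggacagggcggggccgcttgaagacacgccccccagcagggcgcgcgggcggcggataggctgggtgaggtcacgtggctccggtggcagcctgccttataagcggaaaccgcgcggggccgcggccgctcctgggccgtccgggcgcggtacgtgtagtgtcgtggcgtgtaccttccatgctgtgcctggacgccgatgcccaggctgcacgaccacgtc
Insig2, chr1:121332540-121332839, minus strand: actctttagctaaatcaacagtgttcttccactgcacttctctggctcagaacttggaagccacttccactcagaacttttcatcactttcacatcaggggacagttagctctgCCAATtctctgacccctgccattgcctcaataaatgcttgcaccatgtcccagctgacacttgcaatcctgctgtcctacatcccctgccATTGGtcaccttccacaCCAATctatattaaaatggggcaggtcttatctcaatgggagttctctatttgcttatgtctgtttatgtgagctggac
Lss, chr10:76531355-76531654, plus strand: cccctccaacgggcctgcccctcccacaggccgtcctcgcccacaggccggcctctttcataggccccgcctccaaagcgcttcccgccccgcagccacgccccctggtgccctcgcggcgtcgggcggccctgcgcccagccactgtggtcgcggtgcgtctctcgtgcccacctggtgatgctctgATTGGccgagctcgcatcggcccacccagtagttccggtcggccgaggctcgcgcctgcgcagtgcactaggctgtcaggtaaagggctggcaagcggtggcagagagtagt
Sc5d, chr9:42264251-42264550, minus strand: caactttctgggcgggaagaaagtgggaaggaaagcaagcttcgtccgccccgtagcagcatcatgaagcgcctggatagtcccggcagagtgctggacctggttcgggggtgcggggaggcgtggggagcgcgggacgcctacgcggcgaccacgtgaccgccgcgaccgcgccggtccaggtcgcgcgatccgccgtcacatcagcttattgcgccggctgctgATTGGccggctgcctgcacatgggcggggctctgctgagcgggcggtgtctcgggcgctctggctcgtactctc
Mylip, chr13:45389492-45389791, plus strand: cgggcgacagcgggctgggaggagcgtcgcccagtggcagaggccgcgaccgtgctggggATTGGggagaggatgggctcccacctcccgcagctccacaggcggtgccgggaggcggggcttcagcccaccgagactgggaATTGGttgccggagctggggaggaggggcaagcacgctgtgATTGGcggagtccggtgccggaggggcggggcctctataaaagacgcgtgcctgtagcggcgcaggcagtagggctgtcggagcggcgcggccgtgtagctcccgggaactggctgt

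At least 1 CCAAT box was found in the windows of 21 of 23 members, against 41.1% of the 27025 genes in the table. The sterol regulatory core was found in 1 member, Hmgcs1, 137 bases before its start, and in 1.44% of all genes. Insig2 has 3 windows, and its 3 CCAAT boxes lie in the one printed, with none in the other 2. The palindrome ACANNNTGT of glucocorticoid receptor sites was found in the window of Acat2 alone, against 7.9% of all genes, and the repeat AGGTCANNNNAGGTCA of the oxysterol receptor LXR in none, against 0.015%. A match describes these letters in these windows and is no measured binding.

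The sensor showed opposite changes of its 2 INSIG genes. Insig1 encodes the INSIG whose own level follows SREBP activity. Its level was 1.57, 1.66, 1.60 and 0.46 on the untreated wild-type arrays and 0.00, 0.23, 0.43 and 0.19 with dexamethasone. Without treatment the knockout arrays read 0.92, 1.79, 1.45 and 1.98, and with it 2.23, 2.05, 1.83 and 1.52. Every treated wild-type array was therefore below all other 12, with untreated array 4 close above them. Insig1 fell by 1.11 (log2, SE 0.28, limma adjusted p = 0.017) in wild type, had an estimate of 0.37 (SE 0.28, adjusted p = 0.56) in the knockout, and was 1.69 higher (SE 0.28, adjusted p = 0.00078) in treated knockout than in treated wild-type liver. The interaction was 1.48 (SE 0.39, adjusted p = 0.044). In wild type the call was lost without untreated array 1, 2 or 3 or treated array 1 (adjusted p up to 0.063, change between -1.40 and -0.996 over all 16 arrays left out in turn), and 12 of the 16 took away that of the interaction (adjusted p up to 0.097, between 1.27 and 1.77), all but untreated wild-type array 4, untreated knockout arrays 1 and 4 and treated knockout array 4. With the mean of its probes Insig1 was not called in wild type either (-0.69, adjusted p = 0.138). A second Insig1 probe gave -0.28 in wild type (adjusted p = 0.61 over all probes) and 0.87 between treated genotypes (adjusted p = 0.054), so the size rests on the brighter probe, at chr5:27110161-27110220 (mm7, plus strand).

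Insig2 encodes the second retention protein. Its levels were 4.49, 3.45, 5.11 and 5.45 in untreated wild type and 7.28, 6.36, 6.88 and 7.20 with dexamethasone. Untreated knockout arrays read 3.69, 4.08, 5.12 and 4.65, and treated ones 4.54, 3.39, 3.77 and 4.65. The treated wild-type arrays stood above all others without overlap, and the 12 others spanned one range. Insig2 rose by 2.30 (SE 0.43, 4.93-fold, adjusted p = 0.0035) in wild type and had an estimate of -0.30 (SE 0.43, adjusted p = 0.79) in the knockout. Its interaction of -2.60 (SE 0.60, adjusted p = 0.025) lost the call without treated wild-type array 1 or 4 or treated knockout array 2 or 3 (adjusted p up to 0.056, between -2.87 and -2.21). Treated knockout liver was 2.84 lower than treated wild type (SE 0.43, adjusted p = 0.00046). A second probe gave 2.19 in wild type (adjusted p = 0.0078) and an interaction of -2.47 that did not pass (adjusted p = 0.051). One more, for a clone, was above background on 0 arrays.

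Scap, the escort protein, was at 6.02, 6.13, 6.19 and 5.83 in untreated and 5.32, 5.33, 5.65 and 5.38 in treated wild type. On the knockout arrays it was at 5.75, 6.08, 6.13 and 5.87 untreated and 5.87, 5.81, 6.13 and 6.14 treated. Only the treated wild-type group was set apart, below every other array. It fell by 0.62 (SE 0.13, adjusted p = 0.008), against 0.03 (SE 0.13, adjusted p = 0.95) in the knockout. The interaction of 0.65 (SE 0.19) did not pass (adjusted p = 0.067), while treated knockout exceeded treated wild type by 0.56 (SE 0.13, adjusted p = 0.0079). Under normexp both calls of Scap were lost (adjusted p = 0.0975 in wild type and 0.205 between treated genotypes).

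Srebf2, the transcription factor itself, was at 3.69, 3.60, 3.42 and 3.97 in untreated and 3.84, 3.95, 4.31 and 4.08 in treated wild type, and the groups overlapped. Its 4 treated knockout arrays, at 3.70, 3.55, 3.52 and 3.47, lay below the 4 treated wild-type arrays, and the untreated ones were at 3.95, 3.38, 3.34 and 3.68. In wild type the estimate was 0.37 (SE 0.16, adjusted p = 0.15), and in the knockout -0.03 (SE 0.16, adjusted p = 0.95). The interaction of -0.40 (SE 0.23) did not pass (adjusted p = 0.42). Treated knockout was lower than treated wild type by 0.49 (log2 -0.49, SE 0.16, adjusted p = 0.041). That call was lost in 9 of the 16 fits with 1 array left out (adjusted p up to 0.12), by untreated wild-type arrays 1 and 2, treated wild-type arrays 2, 3 and 4 and each treated knockout array. Probes of Srebf2 differed, one more giving 0.68 in wild type (adjusted p = 0.0053) and another 0.06 (adjusted p = 0.85), and with their mean the call between treated genotypes was lost (-0.16, adjusted p = 0.433).

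**Figure D2:**
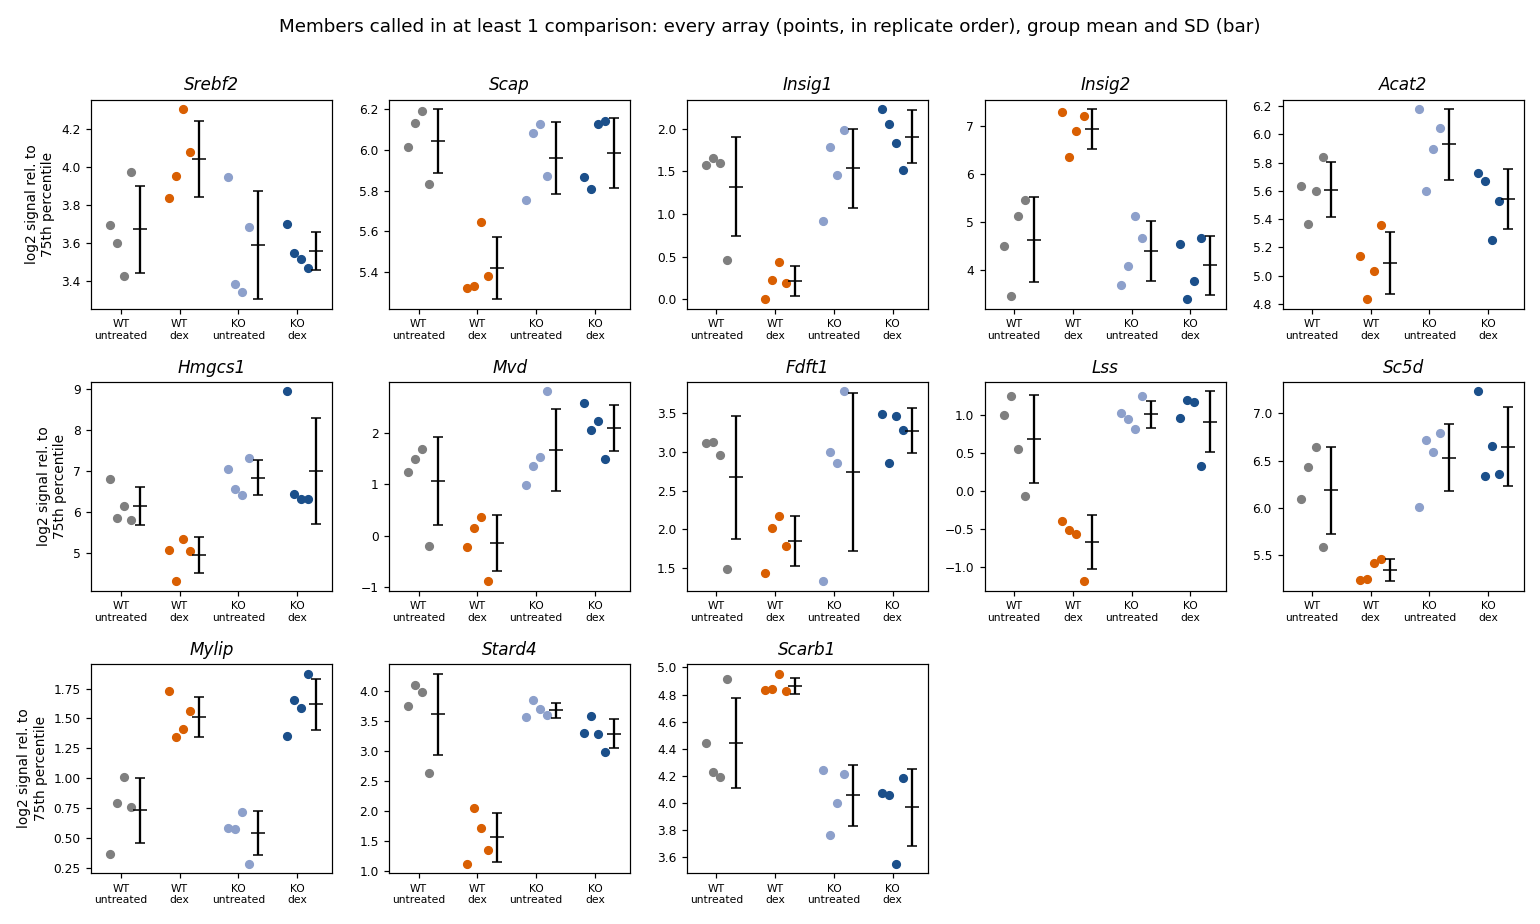
Log2 level relative to the array's 75th percentile for the 13 members called in at least 1 comparison, 1 panel each. Points are the 4 arrays of each group in replicate order and the bars give the group mean and SD. Treated wild-type arrays stand apart from all arrays of the other 3 groups for Scap, Insig1, Insig2, Hmgcs1, Lss, Sc5d and Stard4, and Mylip is higher with dexamethasone in both genotypes. The panels were picked by their calls, and the share of all genes that stand apart in this way is not given here.

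With all arrays, 1 of the 8 mevalonate genes was called in wild type with dexamethasone, near the 12% of all genes. Between treated genotypes 2 of 8 were called, near the 22.3% of all genes, and Acat2 and Mvk were added without both dim arrays. Acat2, which joins acetyl-CoA units in the cytosol, was at 5.64, 5.37, 5.60 and 5.84 in untreated and 5.14, 4.83, 5.03 and 5.36 in treated wild type. The groups lay just apart, the lowest untreated array at 5.37 and the highest treated one at 5.36. The knockout arrays were at 6.18, 5.60, 5.90 and 6.04 untreated and 5.72, 5.67, 5.25 and 5.53 treated. Acat2 fell by 0.52 (SE 0.16, adjusted p = 0.0499) in wild type, a call at the edge of the threshold that 12 of the 16 fits with 1 array left out did not make (adjusted p up to 0.13, change between -0.61 and -0.43). The 4 that made it left out treated wild-type array 4, untreated knockout array 1 or 2, or treated knockout array 3. The estimate in the knockout was -0.38 (SE 0.16, adjusted p = 0.24) and the interaction 0.13 (SE 0.23, adjusted p = 0.87).

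Hmgcs1, which makes HMG-CoA and is a classical SREBP target, was at 6.79, 5.85, 6.13 and 5.79 in untreated and 5.07, 4.30, 5.32 and 5.04 in treated wild type, without overlap. The knockout arrays were at 7.05, 6.55, 6.42 and 7.31 untreated and 8.94, 6.42, 6.31 and 6.31 treated. Treated knockout array 1 stands far above its group. The wild-type estimate of -1.20 (SE 0.49) did not pass (adjusted p = 0.13), and that in the knockout was 0.16 (SE 0.49, adjusted p = 0.91). The interaction of 1.37 (SE 0.69) did not pass (adjusted p = 0.35). Treated knockout exceeded treated wild type by 2.06 (SE 0.49, adjusted p = 0.0081). Over all 16 arrays left out in turn that difference lay between 1.41 and 2.29 and kept its call. Its other probes gave 1.72 (adjusted p = 0.047) and 2.76 (adjusted p = 0.0015). The latter probe, above background on 8 arrays only, also differed between untreated genotypes (2.16, adjusted p = 0.035). The deposited mm7 positions of all 3 probes are on unplaced sequence, whereas RefSeq has Hmgcs1 on chromosome 13.

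Mvd, which forms isopentenyl diphosphate, was at 1.23, 1.51, 1.70 and -0.19 in untreated and -0.21, 0.15, 0.37 and -0.88 in treated wild type. It was at 0.98, 1.35, 1.54 and 2.81 on untreated and 2.59, 2.05, 2.23 and 1.51 on treated knockout arrays. Dim array 4 put the untreated wild-type group into overlap with the treated one. In wild type the estimate was -1.20 (SE 0.45, adjusted p = 0.096), and in the knockout 0.42 (SE 0.45, adjusted p = 0.70). The interaction of 1.62 (SE 0.63) did not pass (adjusted p = 0.19). Between treated genotypes Mvd was 2.24 higher in the knockout (SE 0.45, adjusted p = 0.0029).

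On the way to lanosterol, Fdft1 and Lss differed between treated genotypes, 2 of 3 genes against 22.3% of all genes. In wild type with dexamethasone 1 of the 3 was called, against 12%. Fdft1, squalene synthase, was at 3.11, 3.13, 2.96 and 1.49 in untreated and 1.43, 2.01, 2.16 and 1.78 in treated wild type, and at 1.33, 2.99, 2.86 and 3.78 in untreated and 3.49, 2.86, 3.47 and 3.28 in treated knockout. Both dim arrays were the lowest of their groups by more than 1 log2 unit. Its estimate with all arrays was -0.83 (SE 0.45, adjusted p = 0.26) in wild type and 0.53 (SE 0.45, adjusted p = 0.61) in the knockout. The interaction of 1.36 (SE 0.63) did not pass with all arrays (adjusted p = 0.29). Treated knockout was 1.43 higher than treated wild type (SE 0.45, adjusted p = 0.033). Without treated wild-type array 1, 2 or 4 or treated knockout array 1, 3 or 4 that call was lost (adjusted p up to 0.09, difference between 1.29 and 1.57), as it was under normexp or with no filter on dim probes. A second probe gave 0.72 (adjusted p = 0.20).

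Lss, lanosterol synthase, was at 1.01, 1.26, 0.55 and -0.06 in untreated and -0.39, -0.51, -0.57 and -1.18 in treated wild type. In the knockout it was at 1.03, 0.95, 0.81 and 1.25 untreated and 0.96, 1.20, 1.17 and 0.34 treated. All treated wild-type arrays were below all others. Lss fell by 1.35 (SE 0.27, adjusted p = 0.0055) in wild type, with -0.10 (SE 0.27, adjusted p = 0.90) in the knockout and an interaction of 1.26 (SE 0.38) that did not pass (adjusted p = 0.081). Between treated genotypes it was 1.58 higher in the knockout (SE 0.27, adjusted p = 0.0011). The 3 probes disagreed: the one used matches a clone at chr10:76212419-76212478 (mm7, plus strand), and the probes for the RefSeq transcript, at chr10:76208898-76208957 and chr10:76206315-76206374, gave -0.39 (adjusted p = 0.62) and -0.21 (adjusted p = 0.70) in wild type. Between treated genotypes they gave 1.05 (adjusted p = 0.096) and 0.88 (adjusted p = 0.045). In wild type Lss was not called with the mean of the probes (-0.65, adjusted p = 0.169) or under normexp (-0.37, adjusted p = 0.755), and under normexp it was not called between treated genotypes (adjusted p = 0.101).

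Of the 8 late enzymes, only Sc5d was called with all arrays in any comparison by the probe that stood for the gene. That is 1 of 8 in wild type with dexamethasone, near the 12% of all genes, and 1 of 8 between treated genotypes, below their 22.3%. Sc5d, the lathosterol desaturase, was at 6.10, 6.43, 6.64 and 5.58 in untreated and 5.23, 5.24, 5.42 and 5.46 in treated wild type. The knockout arrays were at 6.01, 6.72, 6.59 and 6.79 untreated and 7.23, 6.34, 6.66 and 6.36 treated. Treated wild-type arrays were the 4 lowest of the 16. Sc5d fell by 0.85 (SE 0.25, adjusted p = 0.036) in wild type, with 0.12 (SE 0.25, adjusted p = 0.86) in the knockout, an interaction of 0.97 (SE 0.35, adjusted p = 0.15), and a difference of 1.31 between treated genotypes (SE 0.25, adjusted p = 0.002). Leaving out untreated wild-type array 1, 2 or 3 or any treated wild-type array ended the call in wild type (adjusted p up to 0.11, between -1.05 and -0.70), as did normexp or no filter on dim probes. A second probe gave -1.58 (adjusted p = 0.036).

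The largest fall among the 30 was that of Stard4, a cytosolic sterol carrier. Its levels were 3.75, 4.09, 3.97 and 2.63 in untreated and 1.13, 2.05, 1.73 and 1.36 in treated wild type. Untreated knockout arrays read 3.56, 3.84, 3.69 and 3.60, and treated ones 3.30, 3.59, 3.27 and 2.98. The 4 treated wild-type arrays were below the other 12, and dim array 4 was the lowest of those 12. Stard4 fell by 2.05 (SE 0.28, 4.13-fold lower, adjusted p = 0.00067) in wild type and had an estimate of -0.39 (SE 0.28, adjusted p = 0.54) in the knockout. Treated knockout exceeded treated wild type by 1.72 (SE 0.28, adjusted p = 0.00073). The interaction of 1.66 (SE 0.39, adjusted p = 0.027) lost its call in 7 of the 16 fits with 1 array left out, those without untreated wild-type array 1, 2 or 3, treated wild-type array 1 or 4, or treated knockout array 2 or 3 (adjusted p up to 0.061, between 1.50 and 1.99). Other probes gave -1.50 (adjusted p = 0.046) and -1.33 (adjusted p = 0.07) in wild type. Their interactions, 1.64 (adjusted p = 0.21) and 1.57 (adjusted p = 0.23), did not pass. Nor did their differences between treated genotypes, 1.20 (adjusted p = 0.077) and 1.07 (adjusted p = 0.11). The interaction of Stard4 was also not called under normexp, with no filter on dim probes or with the mean of its probes.

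Mylip encodes IDOL, a ubiquitin ligase that sends lipoprotein receptors to degradation and is a known LXR target. It was the member that rose in both genotypes. Its level was 0.37, 0.80, 1.01 and 0.76 in untreated and 1.73, 1.35, 1.41 and 1.57 in treated wild type, and 0.59, 0.58, 0.72 and 0.29 in untreated and 1.35, 1.65, 1.59 and 1.87 in treated knockout. The 8 treated arrays lay above the 8 untreated ones. The rise was 0.78 (SE 0.16, 1.72-fold, adjusted p = 0.0058) in wild type and 1.07 (SE 0.16, 2.10-fold, adjusted p = 0.0033) in the knockout, and the difference between them, 0.29 (SE 0.22), did not pass (adjusted p = 0.61). Both calls were made in all 16 fits with 1 array left out.

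Scarb1, the receptor for high-density lipoprotein, was at 4.45, 4.23, 4.20 and 4.92 in untreated and 4.83, 4.84, 4.95 and 4.83 in treated wild type. In the knockout it was at 4.25, 3.77, 4.00 and 4.21 untreated and 4.08, 4.06, 3.56 and 4.18 treated. Untreated wild-type array 4 sat among the treated arrays, and all treated knockout arrays were below all wild-type ones. The wild-type estimate of 0.42 (SE 0.18) did not pass (adjusted p = 0.15), and that in the knockout was -0.09 (SE 0.18, adjusted p = 0.86). The interaction of -0.51 (SE 0.25) did not pass (adjusted p = 0.34). Treated knockout was lower than treated wild type by 0.89 (log2 -0.89, SE 0.18, adjusted p = 0.0028). Between untreated genotypes the estimate was already -0.39 (SE 0.18, adjusted p = 0.24), which was not called.

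With all arrays, the other 17 members were called in none of the 5 comparisons by the probes that stood for them. Their estimates for dexamethasone ran from -0.56 (Soat2) to 0.30 (Ggps1) in wild type and from -0.30 (Tm7sf2) to 0.79 (Sqle) in the knockout. Between genotypes they ran from -0.65 (Fdps) to 0.36 (Msmo1) untreated and from -0.29 (Fdps) to 1.06 (Msmo1) with dexamethasone. Sqle, squalene epoxidase, gave 0.11 (SE 0.44, adjusted p = 0.90) in wild type, or -0.30 without dim array 4, with treated arrays spread from 1.81 to 3.41 and untreated ones from 1.11 to 2.96. Cyp51, which removes a methyl group from lanosterol, gave -0.06 (SE 0.39, adjusted p = 0.94), or -0.33 without that array, and acts after Lss. Neither enzyme passed the test, and neither sign held in all fits with 1 array left out. Msmo1, a sterol methyl oxidase, came nearest to a call between treated genotypes (1.06, SE 0.40, adjusted p = 0.071), at 5.53 to 6.31 in the knockout and 4.61 to 4.91 in wild type. Without both dim arrays Msmo1 was called there (adjusted p = 0.013). Npc1, the lysosomal cholesterol exporter, came nearest without treatment (-0.42, SE 0.12, adjusted p = 0.08), at 0.52 to 0.92 in the knockout and 1.07 to 1.44 in wild type. Soat2, which esterifies cholesterol in hepatocytes, was at 0.42 to 1.41 in untreated and 0.25 to 0.66 in treated wild type, which overlapped (-0.56, SE 0.30, adjusted p = 0.25). Fdps, which makes farnesyl diphosphate, had an SE of 0.54 and a wild-type estimate of 0.21 (adjusted p = 0.84), which was -0.20 without dim array 4.

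Further probes of the members, 27 probes of 18 genes, passed the filter, and their results, looked at after the values were seen, were called in 5 cases in wild type with dexamethasone, 0 in the knockout, 1 for the interaction, 2 between untreated and 8 between treated genotypes. The share of all probes called in that fit is not given here, so these counts have no share to stand against. Nsdhl and Fdps, not called by the probes that stood for them, were among the genes with a called further probe. Nsdhl, a sterol dehydrogenase, gave -0.06 in wild type with its brightest probe, and 2 others were near it (-0.04 and 0.01). A clone probe at chrX:68327722-68327781 (mm7, plus strand), above background on 12 arrays, gave -2.21 in wild type (adjusted p = 0.0057), an interaction of 2.80 (adjusted p = 0.024) and 3.11 between treated genotypes (adjusted p = 0.00031). A clone probe of Fdps, above background on 16 arrays, gave -0.91 in wild type (adjusted p = 0.31) and 2.10 between treated genotypes (adjusted p = 0.013), against -0.29 for the brightest probe. Between untreated genotypes the probes called were the dim one of Hmgcs1 and one of Srebf2 (1.23, adjusted p = 0.045), above background on 7 arrays. The probe that stood for Soat1 is placed on chromosome 7 and those of Idi1 on chromosome 2 (mm7), whereas RefSeq has these genes on chromosomes 1 and 13. The 1 probe of Acat2 is placed on the plus strand of chromosome 17 (mm7), whereas the RefSeq window of Acat2 is on the minus strand. What these differences do to the values was not tested.

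**Figure D3:**
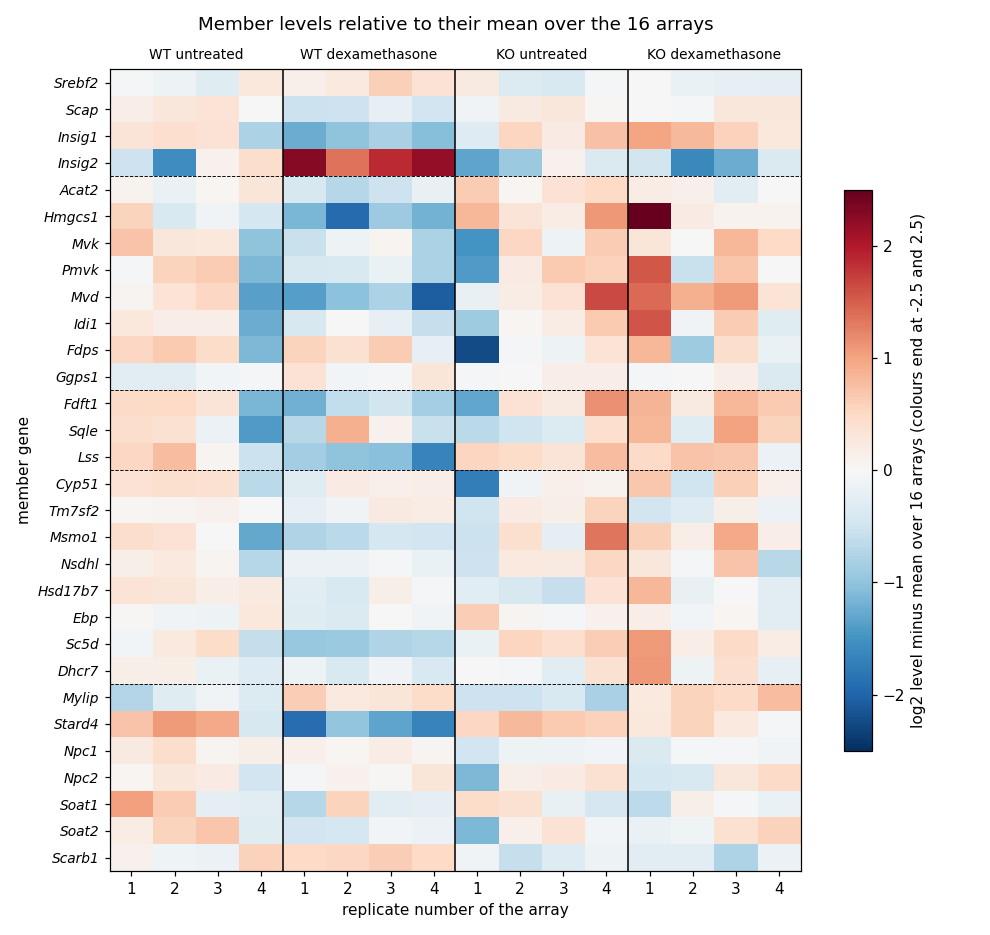
Log2 level of each member on each of the 16 arrays minus its mean over the 16, with rows in the order of roles and columns in group and replicate order. Red is above and blue below the gene's mean. Untreated wild-type array 4 and untreated knockout array 1 are blue for many synthesis genes, and in the treated wild-type columns Insig2 is red while Insig1, Lss, Sc5d and Stard4 are blue.

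Genes around the pathway were followed in 6 further lists, whose median changes with dexamethasone in wild type are given beside the -0.03 of all genes. With dexamethasone in wild type 5.18% of all genes were called higher and 6.81% lower, and between treated genotypes 14.1% higher and 8.2% lower. Counts in the lists are a description beside these shares. Of 9 genes of SREBP processing and turnover (median -0.09), none was called with dexamethasone in either genotype. Between treated genotypes 2 of the 9 were higher in the knockout, near the 22.3% of all genes called in either direction. They were Erlin1 (0.93, SE 0.15, adjusted p = 0.00082), whose product binds the SREBP complex, and the ubiquitin ligase gene Rnf145 (0.75, SE 0.22, adjusted p = 0.026). Of 8 genes of LXR and sterol export (median -0.38), dexamethasone in wild type lowered 2 and raised 1, against 6.81% and 5.18% of all genes. It lowered Abcg5 (-0.94, SE 0.21, adjusted p = 0.0092) and Abcg8 (-0.92, SE 0.26, adjusted p = 0.031), the partners of the transporter that sends sterols into bile. It raised Abca1 (0.86, SE 0.20, adjusted p = 0.014), which loads cholesterol onto apolipoprotein A-I. In the knockout 0 of the 8, which include the LXR genes Nr1h2 and Nr1h3 themselves, were called with dexamethasone, where 3.58% of all genes were. Between treated genotypes Lpcat3 was higher (0.98, adjusted p = 0.017) and Abca1 lower (-0.64, adjusted p = 0.037) in the knockout. These are 1 of 8 in each direction, against 14.1% and 8.2% of all genes.

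Of 8 genes of acetyl-CoA supply and other SREBP targets (median -0.42), 1 was called in wild type with dexamethasone, near the 12% of all genes. The interaction and the comparison of treated genotypes each called 1 of the 8, against 4.61% and 22.3% of all genes. Acly, which makes cytosolic acetyl-CoA from citrate, fell by 1.31 (SE 0.33, adjusted p = 0.017), its interaction was 1.70 (SE 0.46, adjusted p = 0.0496), and treated knockout was 2.03 higher (SE 0.33, adjusted p = 0.00069). Among 6 genes listed as electron donors of sterol oxidation (median -0.24), 1 was called in wild type, against 12% of all genes. It was Erg28, a scaffold of the late enzymes, which fell by 0.77 (SE 0.15, adjusted p = 0.0053). Erg28 (0.73) and Cyb5b (0.73) were higher in treated knockout than in treated wild type, 2 of 6 against 14.1% of all genes called higher. Of 12 genes of lysosomal and intracellular transfer (median -0.18), 1 was called in wild type, below the 12% of all genes. It was Lipa, the lysosomal acid lipase that frees cholesterol from its esters, which fell by 1.13 (SE 0.17, adjusted p = 0.0011). Between treated genotypes 2 of the 12 were higher in the knockout, against 14.1% of all genes: Lipa (1.10, SE 0.17, adjusted p = 0.00054) and Gramd1c (0.51). Gramd1b was lower with dexamethasone in the knockout (-0.72, SE 0.17, adjusted p = 0.034), 1 of 12 where 3.58% of all genes were called.

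In the isoprenoid branch that leaves the pathway at farnesyl diphosphate, 13 of 14 listed genes were tested (median 0.29). With dexamethasone in wild type 1 of the 13 was called higher and 2 lower, against 5.18% and 6.81% of all genes. In wild type Rabggta, a subunit of the enzyme that prenylates Rab proteins, fell by 0.99 (SE 0.16, adjusted p = 0.0016), the CAAX protease gene Rce1 fell by 0.54 (SE 0.12, adjusted p = 0.011), and the farnesyltransferase subunit gene Fntb rose by 0.71 (SE 0.21, adjusted p = 0.042). The interaction passed for Rabggta (1.06, adjusted p = 0.016) and Rce1 (0.68, adjusted p = 0.038), 2 of 13 against 1.93% of all genes called higher. Between treated genotypes both were higher and Zmpste24 lower (-0.54, adjusted p = 0.021) in the knockout, against 14.1% and 8.2% of all genes. None of the genes of the 6 lists was called between the untreated genotypes, where 2.82% of all genes were.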

How the data were processed

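16 liver RNA samples were hybridised singly to one-colour Agilent arrays. The deposited processed signal is an intensity, background-subtracted within the array. Per the submitters' processing notes the software was Agilent Feature Extraction 9.5, and the deposited series table held the same intensity values (largest difference 0). Flags (kind other) mark spots above background or outlying, per the file headers. Probe positions are on mm7.

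Control spots were left out, outlying spots (0.306%) set to missing and the spots of a probe averaged. From each log2 signal the 75th percentile of its array, over spots of transcripts, was subtracted. A probe was kept if some group had it well above background on 3 or 4 arrays (26794 probes), and the one with the highest mean stood for its gene (18507 genes). Limma 3.58.1 in R 4.3.3 fitted 4 group means to 16 arrays (12 residual degrees of freedom), and 5 comparisons were drawn. Adjusted p-values of a gene's further probes are over all probes. The fit was tested on simulated data. Figures used matplotlib 3.10.9.

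The 30 members and the lists were chosen with earlier results of these data known. Every member called anywhere is given with its level on each array and its called changes. Up to 6 others are given by name, and up to 3 called genes per list and comparison. Replicate numbers entered no main fit. The number of arrays limits the precision. Alternatives were other background correction, scaling, filters, ways to join probes, variance priors, array weights, a replicate block, only the groups compared, the series table, and each array left out in turn.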

Additional observations from a re-analysis of the deposited data

Results flagged for a closer look

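In 120 sets of 4 arrays (30 members in 4 groups), 13 had an array set apart from the other 3 by Dixon's test, and chance sets apart about 1 set in 20. Untreated wild-type array 4, 1 of the 2 dim arrays, was the low one for 5 members, with Cyp51 at 0.19, Fdft1 at 1.49, Fdps at 3.52, Idi1 at 3.15 and Insig1 at 0.46. Untreated knockout array 1, the other dim array, was the low one for Cyp51 (-0.86), Npc1 (0.52) and Npc2 (1.66). Treated knockout array 1 was high for Hmgcs1 (8.94) and low for Npc1 (0.64). In treated wild type, array 1 was low for Cyp51 (0.57), and array 3 was high for Nsdhl (1.45) and Scarb1 (4.95). The response to dexamethasone differed between the genotypes by limma's interaction term for Insig1 (1.48), Insig2 (-2.60) and Stard4 (1.66), with changes of -1.11, 2.30 and -2.05 in wild type and 0.37, -0.30 and -0.39 in the knockout.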

How the results depend on the processing

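Over 12 other settings and 16 arrays left out in turn, no called member result changed direction. Of 127 member estimates that were not called, 48 changed sign in at least 1 fit, those without both dim arrays included, and 16 were called in at least 1. Among them, in wild type Fdps went from 0.21 to -0.20 and Sqle from 0.11 to -0.30 without untreated wild-type array 4. In wild type with dexamethasone, 8 members were called, 4 under normexp background correction, 15 with array weights and 5 to 9 with 1 array left out. For the interaction, 3 members were called, 0 under normexp, 1 with no filter on dim probes, 1 with the mean of a gene's probes, 8 with array weights, 7 without both dim arrays, and 0 to 6 with 1 array left out. Between untreated genotypes 0 members were called (2 at an unadjusted p under 0.05), 1 with array weights and 0 in every fit with 1 array left out. In the knockout 1 member was called in every such fit, and between treated genotypes 9 to 13. Over all genes, these fits called 1210 to 3277 in wild type, 312 to 931 in the knockout and 502 to 1479 for the interaction. They called 157 to 643 genes between untreated and 2936 to 5555 between treated genotypes. The causes were not tested. Normexp ended the calls of Acat2, Lss, Sc5d and Scap in wild type, and of Fdft1, Lss and Scap between treated genotypes. Taking the mean of a gene's probes ended those of Acat2, Insig1 and Lss in wild type. Over all genes, normexp called 1194 in wild type, 46 in the knockout, 95 for the interaction, 85 between untreated and 2363 between treated genotypes, and array weights 5004, 1798, 2726, 1556 and 6683. With only the groups compared, 139 were called in the knockout and 90 between untreated genotypes, with no filter 417 in the knockout, 537 for the interaction and 261 between untreated genotypes, and with quantile normalization 1093 in the knockout.

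With the replicate number as a block, 7 members were called in wild type (Sc5d was lost) and 1 in the knockout. For the interaction 4 were called (2 of them shared with the 3, Insig1 lost). Between untreated genotypes 0 were called, and between treated genotypes 11 (10 shared, Srebf2 lost). Over all genes the block called 2172 in wild type and 804 in the knockout, beside 2219 and 663 in the main fit. Residuals of same-numbered arrays correlated between -0.19 and 0.35 in 24 pairs (median 0.08), 10 of them over 0.1. Since not every pair passed 0.1, a strict rule, the numbers were not taken as a pairing. Yet 24 of 48 best matches were to the same number, more than an even draw among the 4 arrays of a group gives on average. That is a hint from the data that arrays of a number share something.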
